A study of Mus musculus with 6 samples.

Results

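The genes described here belong to the NRF2 response, the glutathione and thioredoxin systems and the enzymes that make NADPH. They were taken by name from the table of read counts, and all 40 named genes were found among its 34745 genes. RNAseq was done on monocytic myeloid-derived suppressor cells (M-MDSCs), which are immature myeloid cells that restrain T cells, with 3 libraries from mTOR-/- cells and 3 from wild-type (WT) cells of strain C57BL/6. The mTOR-/- cells came from Lyz-mTOR mice (Lyz-Cre, mTOR flox/flox), in which a Cre recombinase under the lysozyme promoter of myeloid cells removes the floxed Mtor allele, and the WT mice were purchased C57BL/6 animals rather than floxed littermates. In both groups, M-MDSCs were grown from bone marrow with GM-CSF and IL-6 and then sorted, so what the groups share is the culture and the 2-mercaptoethanol in its medium. The ages of the mice are not given in the sources used here. The cells were obtained from mice of each kind with n = 3, but the labels do not tie each library to an animal of its own, so the p-values measure the spread between these libraries, whether it is between animals or technical.

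NRF2, encoded by Nfe2l2, is a transcription factor that is kept low by KEAP1, which hands it to a ubiquitin ligase. When oxidants or electrophiles modify KEAP1, NRF2 accumulates, pairs with a small MAF protein such as MAFG and binds antioxidant response elements, which the repressor BACH1 can also occupy. Its targets make glutathione, rebuild reduced thioredoxin and raise NADPH, the reducing power that both systems spend. In myeloid cells these systems set how much hydrogen peroxide a cell can make or meet without damage.

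The core of the antioxidant response element, TGACNNNGC, was searched on both strands of RefSeq promoter windows of GRCm38.p6, each reaching from 250 bases before to 50 bases after a transcript's start. Of the 40 genes, 35 had a window, and 11 of these (31.4%) held the core, beside 14% of the 27025 genes with a window. The 11 were Nfe2l2, Mafg, Gclm, Gstm5, Mgst1, Txnrd1, Srxn1, Prdx1, G6pdx, Pgd and Me1. For 5 of them, 1 from each branch of the response, the stretch around the match is given 5′ to 3′ along the gene's strand with the core, or its reverse complement, in capitals.
Nfe2l2 (chr2:75704875-75704913, minus strand): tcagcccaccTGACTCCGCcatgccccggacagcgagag
Gclm (chr3:122245403-122245451, plus strand): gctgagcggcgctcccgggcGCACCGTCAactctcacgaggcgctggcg
Txnrd1 (chr10:82859094-82859142, plus strand): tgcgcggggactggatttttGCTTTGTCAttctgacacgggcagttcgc
Prdx1 (chr4:116685446-116685494, plus strand): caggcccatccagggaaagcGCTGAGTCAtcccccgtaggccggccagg
G6pdx (chrX:74428909-74428957, minus strand): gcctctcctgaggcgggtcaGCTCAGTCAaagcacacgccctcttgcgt
A match is a description of the letters and not a mapped binding site. None of the 11 genes passed the test described next: 5 had a log2 fold change below 0 and 6 above, with a median of 0.002. Of the 24 genes whose window lacked the core, 15 were below 0 and 9 above, with a median of -0.16. These 24 include Nqo1, a known NRF2 target, and Mgst3, which passed the filter on low counts only through WT. Gclc, Gsr, Gsta4, Prdx6 and Me2 had no window and are in neither set. The difference between the sets was not tested.

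The libraries held 12317507 to 14768126 counts, and the 40 genes took 0.594% to 0.651% of the counts of a library. Counts of Mtor were 883, 983 and 908 for mTOR-/- against 980, 875 and 929 for WT, which do not tell the labels apart. Counts over the whole gene cannot show whether its floxed part was removed. The paper reports that loss of mTOR in MDSCs was verified, and mTOR-/- below means the libraries with that label. Over all genes, libraries of the WT group correlated at 0.978 to 0.981 and those of the mTOR-/- group at 0.952 to 0.973, with mTOR-/- 3 the one standing apart. Itgam, which encodes CD11b, lay at 647 to 1028 CPM (counts scaled to the TMM-normalised library size) in all 6 libraries, and Ly6c2 fell by 1.00 on the log2 scale in the mTOR-/- libraries. Of 7 monocyte markers, Lyz2 and Ly6c2 were called lower and Csf1r and Cd14 higher. Their summed level was 2254 to 2768 CPM in mTOR-/- and 3767 to 5409 CPM in WT. This difference lies in Lyz2, the lysozyme gene (a mean of 1024 against 3281 CPM). The other 6 summed to 1351 to 1795 and 1439 to 1601 CPM. The mTOR-/- mice carry Lyz-Cre and the purchased WT mice do not. An effect of this allele on Lyz2 was not tested and cannot be told apart from a change in the monocytes. Of 7 neutrophil markers, Ly6g was called higher (by 2.26 on the log2 scale) and Ltf and Ngp lower (-2.04 and -0.56), and the sums were 1743 to 2146 and 1558 to 1878 CPM, or 320.2 to 348 and 415 to 564 CPM without Mmp8. For 7 mast cell and basophil markers the sums were 439.6 to 511 and 1281 to 1364 CPM, with Cpa3, Mcpt8, Gata2 and Kit called lower, and without Cpa3 they were 329 to 372 and 594 to 649 CPM. Dendritic cell markers summed to 66.1 to 70.3 and 16.4 to 43.6 CPM, with Ccr7 alone called, and to 8.49 to 11.3 and 2.84 to 13.0 CPM without it. Macrophage markers summed to 536 to 658 and 662 to 745 CPM (125 to 134 and 76.6 to 109 CPM without Adgre1), with none called, and eosinophil markers to 47.4 to 72.9 and 99.9 to 117 CPM (13.7 to 18.8 and 14.7 to 23.5 CPM without Prg2, the 1 called). Erythroid markers summed to 2.55 to 3.82 and 7.04 to 12.04 CPM, with none called. T, B and NK cell markers summed to at most 4.28 CPM, with 4 of those 9 at 0 in all libraries. Progenitor markers summed to 124 to 167 and 129 to 201 CPM, with Ctsg alone called (lower). Without Ctsg they summed to 97.7 to 133 and 76.1 to 120 CPM. The part of these other cells in the differences below was not tested, and in bulk RNA fewer cells of a type cannot be told apart from less RNA per cell.

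Of the 40 pathway genes, 1 passed the test of mTOR-/- against WT M-MDSCs, which does not show that the others were equal. All 40 passed the filter on low counts, although Gsta4 and Mgst3 passed only because of their WT counts. A gene was called changed at a Benjamini-Hochberg adjusted p under 0.05 from edgeR's quasi-likelihood test, adjusted over 12537 genes, and was a DEG, by the study's threshold, if it also changed at least 2-fold. Txnip, which rose, was the only one of the 40 genes to be called (2.5%), beside 4.04% of all genes tested (2.18% higher and 1.87% lower), and none of the 40 was a DEG, beside 1.69% of all genes. At an unadjusted p under 0.05 (edgeR) there were 14 of the 40 (35%), 4 higher and 10 lower, beside 21.2% of all genes (11.7% higher and 9.52% lower). The 10 lower include Gsta4. The 95% interval of the change lay inside 2-fold in either direction for 33 of the 40 and inside 1.5-fold for 23, beside 8953 and 5529 of the 12537 genes.

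**Figure D1:**
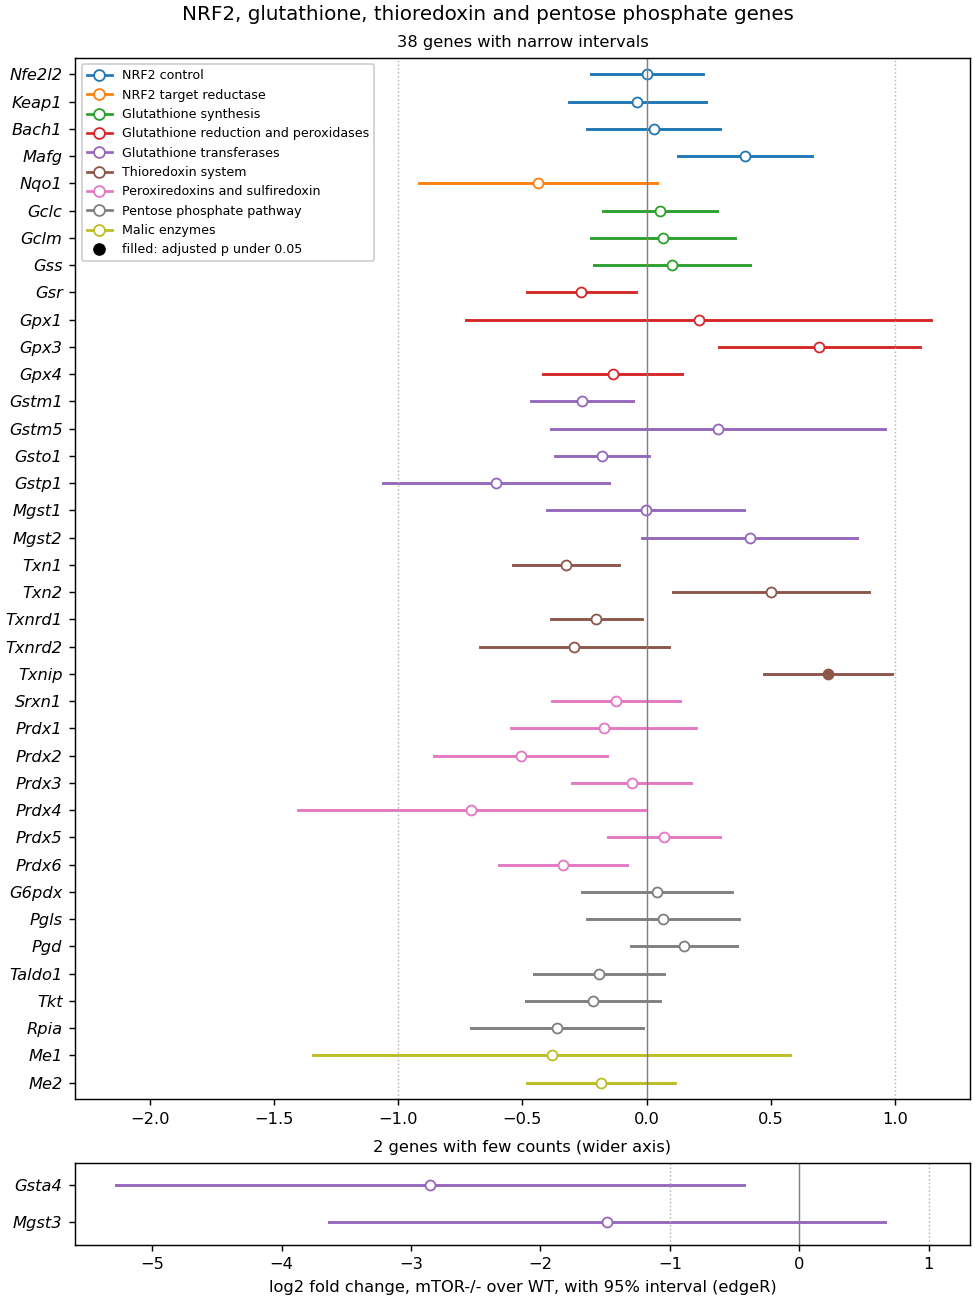
Log2 fold change, mTOR-/- over WT, of each of the 40 genes (points) with its 95% interval (bars), in order of role, with dotted lines at 2-fold and a wider axis for the 2 genes with few counts. The filled point of Txnip, at 0.73, is the only call, and the glutathione synthesis genes sit near 0.

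More of the 40 leaned down than up, by small amounts. The log2 fold change was below 0 for 24 and above 0 for 16 (60% below, beside 49.4% of all genes tested), with a median of -0.13 beside 0.005 for all genes. Gsta4 and Mgst3, which passed the filter only through WT, are among the 24. With at least 10 counts in every library, a filter that leaves them out, 23 of 38 genes were below 0, with a median of -0.099. The groups did not overlap in CPM for 14 genes, 4 higher and 10 lower in mTOR-/-, which is 35% beside 28.4% of all genes (14.5% higher and 13.9% lower). Gsta4 is also among these 10. The library mTOR-/- 3 was the lowest of the 6 for 15 genes (37.5%, beside 27.7% of all genes), and mTOR-/- 2 was the lowest for 13 (32.5%, beside 15% of all genes). Gsta4 and Mgst3 are in these counts too. Gsta4 had 0 counts in both libraries, and this tie was counted under mTOR-/- 2. Without mTOR-/- 3, 23 of the 40 were below 0, with a median of -0.09, and 1 was called.

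**Figure D2:**
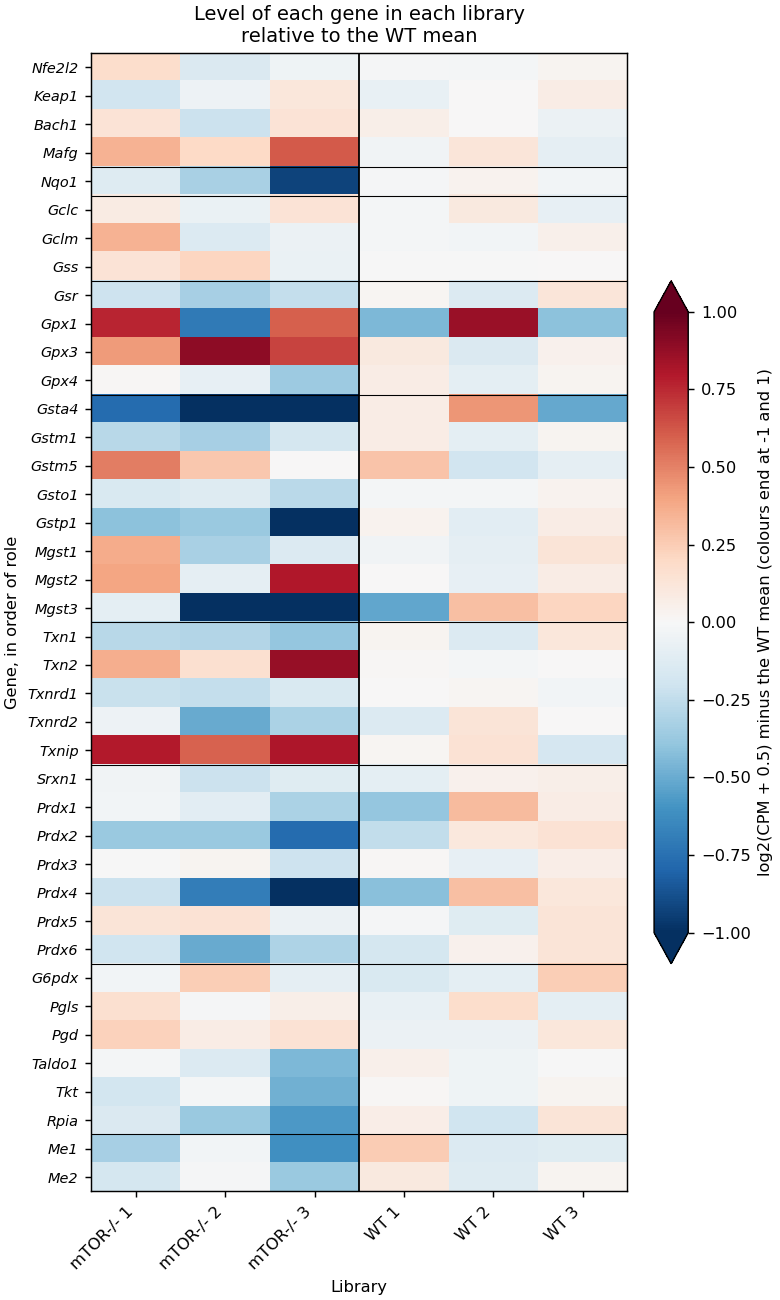
Level of each of the 40 genes (rows, in order of role) in each library (columns) as log2(CPM + 0.5) minus the WT mean, with colours ending at -1 and 1. Txnip stands at 0.59 to 0.81 in the mTOR-/- libraries, while Gpx1 swings from -0.71 to 0.86 without regard to group.

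None of the 4 regulators of the pathway was called, and the intervals of 3 lay inside 1.5-fold. Nfe2l2 (ENSMUSG00000015839, mm10 chromosome 2, 75675513 to 75704641) was at 248, 199 and 213 CPM in the mTOR-/- libraries and 219, 216 and 224 CPM in the WT libraries. The change was 0.00 on the log2 scale, with a 95% interval of -0.22 to 0.23 (SE of 0.10, adjusted p = 0.994, edgeR), which leaves out a change of 1.5-fold. The WT values lay inside the range of the mTOR-/- values. Keap1 (ENSMUSG00000003308, chromosome 9, 21229730 to 21239332) was at 43.0, 47.4 and 53.2 CPM in mTOR-/- and 46.5, 49.2 and 51.6 CPM in WT, again with the WT values inside the mTOR-/- range. Its interval was -0.31 to 0.24 around a log2 fold change of -0.04. Bach1, the competing repressor, had a log2 fold change of 0.03 (SE 0.12). Mafg, the partner of NRF2 on DNA, was the one regulator whose groups did not overlap, at 393, 354 and 474 CPM in mTOR-/- and 302, 336 and 291 CPM in WT. Its log2 fold change of 0.39 (interval 0.12 to 0.67) missed the threshold (adjusted p = 0.105, edgeR). Mafg shares 124 of its 5613 annotated exon bases with Sirt7.

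Nqo1 (ENSMUSG00000003849, chromosome 8, 107388225 to 107403206), a quinone reductase widely read as a reporter of NRF2 activity, was at 17.9, 15.6 and 10.1 CPM in mTOR-/- and 19.5, 20.2 and 19.3 CPM in WT. All mTOR-/- values were below all WT values, and mTOR-/- 3 was the lowest. The log2 fold change was -0.44 (SE 0.21, interval -0.92 to 0.04) and did not pass the test (adjusted p = 0.274, edgeR), and it was -0.24 without mTOR-/- 3.

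Genes of glutathione synthesis stayed close to WT. Gclc and Gclm encode the catalytic and modifier subunits of glutamate-cysteine ligase, the rate-limiting step, and Gss encodes the enzyme that adds glycine. Their log2 fold changes were 0.05, 0.07 and 0.10 (SEs 0.10, 0.13 and 0.14), and all 3 intervals lay inside 1.5-fold. Groups overlapped for each. Gclm was highest in mTOR-/- 1, at 197 CPM against 141 to 160.3 CPM in the other 5 libraries.

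Among glutathione reductase and the 3 glutathione peroxidases, log2 fold changes ran from -0.26 to 0.70 and none was called. Gsr (ENSMUSG00000031584, chromosome 8, 33652523 to 33698163), which uses NADPH to return oxidised glutathione to its reduced form, was at 550.1, 505 and 539.8 CPM in mTOR-/- and 644, 577 and 691 CPM in WT. The groups did not overlap, and the log2 fold change was -0.26 (SE 0.10, adjusted p = 0.170, edgeR). By the authors' FPKM, which scale counts to gene length, Gsr had the second highest level of the 40 genes, at a mean of 196 FPKM, behind Txn1 at 209. The lengths behind these FPKM are not stated: for the 40 genes they were 0.339 to 2.41 times the annotated exon length, so an order of levels between genes is approximate.

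Gpx1, Gpx3, Gpx4, Txnrd1 and Txnrd2 encode selenoproteins, in which a UGA codon inside the reading frame is read as selenocysteine, the residue at the active site. The in-frame codons of the longest annotated coding sequence of each gene (GENCODE M21, GRCm38) are given in capitals with their neighbours. They are shown because this codon sets these 5 apart among the 40 genes. Exon and codon numbers belong to that transcript and can differ in shorter forms of the protein.
Gpx1 (chr9:108339451-108339453, plus strand, exon 1): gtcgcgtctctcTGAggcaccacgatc
Gpx3 (chr11:54907256-54907258, plus strand, exon 2): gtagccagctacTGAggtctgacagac
Gpx4 (chr10:80054737-80054739, plus strand, exon 3): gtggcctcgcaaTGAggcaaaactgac
Txnrd1 (chr10:82896037-82896039, plus strand, exon 15): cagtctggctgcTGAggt
Txnrd2 (chr16:18477772-18477774, plus strand, exon 17): gtgactggttgcTGAggc
In the reductases the codon is the next to last of the reading frame, at position 612 of 613 for Txnrd1 and 526 of 527 for Txnrd2. In the peroxidases it lies further in, at codon 47 of 201 for Gpx1, 73 of 226 for Gpx3 and 129 of 253 for Gpx4. Coordinates are those of the codon.

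Gpx3 (ENSMUSG00000018339, chromosome 11, 54902453 to 54910377), the secreted peroxidase, was at 16.7, 23.4 and 20.0 CPM in mTOR-/- and 13.2, 11.1 and 12.7 CPM in WT. Every mTOR-/- value was above every WT value. Its log2 fold change of 0.70 (SE 0.18, interval 0.29 to 1.10) was close to that of Txnip but did not pass the threshold (adjusted p = 0.0665, edgeR). Gpx4, which reduces lipid peroxides in membranes, had a log2 fold change of -0.14 (interval -0.42 to 0.14), and its groups overlapped.

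Gpx1 (ENSMUSG00000063856, chromosome 9, 108338903 to 108340343), the abundant cytosolic peroxidase, was singled out after its values were seen. It was at 314, 113 and 280.3 CPM in the mTOR-/- libraries and 136, 338 and 139 CPM in the WT libraries. Both groups thus held low and high libraries, with mTOR-/- 2, WT 1 and WT 3 between 113 and 139 CPM and the other 3 between 280.3 and 338 CPM. The log2 fold change was 0.21 with an interval of -0.73 to 1.15 (SE 0.42, adjusted p = 0.816, edgeR), and the upper end of this interval is past 2-fold. The within-group SD of its log2 CPM was 0.777, and 7 of the 2458 genes with a mean of at least 100 CPM had a larger one, where the median was 0.125. Neither Gpx3 nor Gpx4 split the libraries in this way.

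Glutathione transferases, which couple glutathione to electrophiles, had no called gene among 8. The log2 fold change was below 0 for 6 of them (75%, beside 49.4% of all genes tested). These include Gsta4 and Mgst3, which passed the filter only through WT. Mgst1, also among them, is at 0.00 and changed sign with some libraries left out. Gstp1 (ENSMUSG00000060803, chromosome 19, 4035407 to 4037921) was at 20.8, 21.4 and 12.9 CPM in mTOR-/- and 28.6, 25.8 and 29.3 CPM in WT. The groups were apart, and the log2 fold change was -0.60 (SE 0.20, adjusted p = 0.133, edgeR). Its near copy Gstp2 had 3 counts in WT 2 and 0 in the other libraries, against 168 to 411 for Gstp1, so few reads were assigned to the copy. Gstm1, of the mu class, and Gsto1, of the omega class, also did not overlap, with log2 fold changes of -0.26 and -0.18 (SEs 0.09 and 0.08). Gstm5 and Mgst1 overlapped between groups, at 0.29 and 0.00 on the log2 scale (SEs 0.30 and 0.18).

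Mgst2, a microsomal transferase of leukotriene synthesis, was at 122, 86.9 and 162 CPM in mTOR-/- and 93.0, 87.7 and 97.9 CPM in WT, so that mTOR-/- 2 lay below all WT libraries. A log2 fold change of 0.41 (SE 0.19, adjusted p = 0.253, edgeR) rested on single libraries: without mTOR-/- 2 it was 0.60 (adjusted p = 0.0489, edgeR) and without mTOR-/- 3 it was 0.16 (adjusted p = 0.589, edgeR). The remaining transferases were barely detected. Gsta4 (ENSMUSG00000032348, chromosome 9, 78191966 to 78209348) had 7, 0 and 0 counts in mTOR-/- and 20, 29 and 11 counts in WT. Mgst3 (ENSMUSG00000026688, chromosome 1, 167371966 to 167393841) had 22, 5 and 0 counts in mTOR-/- and 17, 37 and 33 in WT. Their fitted log2 fold changes, -2.85 and -1.49, have SEs of 1.08 and 0.95 and did not pass the test (adjusted p = 0.173 and 0.409, edgeR), so differences of these sizes were not established at this depth. With 1 library left out they ran from -7.27 to -2.29 for Gsta4 and from -3.34 to -0.91 for Mgst3. Both were most negative without mTOR-/- 1, which held most of the mTOR-/- counts. The range of Gsta4 covers 4 fits, since it did not pass the filter on low counts without WT 1 or WT 2.

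The thioredoxin system held the called gene. Thioredoxin reduces disulfides in proteins and peroxiredoxins, its reductase recharges it with NADPH, and TXNIP, an arrestin-like protein, binds and inhibits thioredoxin and also limits glucose uptake. Txnip (ENSMUSG00000038393, chromosome 3, 96557957 to 96561883) was at 137, 118 and 138 CPM in the mTOR-/- libraries and 79.9, 87.2 and 70.0 CPM in the WT libraries. The lowest mTOR-/- library was well above the highest WT library. Txnip rose 1.66-fold, a log2 fold change of 0.73 (SE 0.12, interval 0.47 to 0.99, adjusted p = 0.00994, edgeR). Without WT 1 the log2 fold change was 0.73 and without WT 3 it was 0.65, and in these fits the adjusted p was 0.0518 and 0.0550 (edgeR). Txnip shares 606 of its 3123 annotated exon bases with Gm15441 on the opposite strand, and the strand setting of the counting is not stated.

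Txnip is also known for responding to sugar phosphates through a tandem pair of E-box-like sites, bound by MLXIP or MLXIPL with MLX. The 250 bases before its RefSeq start (GRCm38.p6, plus strand) are printed because they hold 1 match to a pair of CACGNG with 5 bases between them, shown in capitals, 85 bases before the start. This motif was searched after the value of Txnip had been seen, on both strands, and 16 of 32851 promoter windows (0.0487%) held it.
Txnip (chr3:96557707-96557956): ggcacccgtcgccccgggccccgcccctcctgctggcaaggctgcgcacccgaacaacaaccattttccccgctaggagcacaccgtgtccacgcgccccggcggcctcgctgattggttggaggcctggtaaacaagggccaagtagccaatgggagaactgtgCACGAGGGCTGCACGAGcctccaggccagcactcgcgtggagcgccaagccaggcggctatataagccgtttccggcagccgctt

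The thioredoxins themselves leaned in opposite directions. Txn1 (ENSMUSG00000028367, chromosome 4, 57943373 to 57956411), the cytosolic thioredoxin, was at 202, 199 and 186 CPM in mTOR-/- and 249, 223 and 264 CPM in WT, with no overlap. The change was -0.32 on the log2 scale (SE 0.09, adjusted p = 0.0931, edgeR). Txn2 (ENSMUSG00000005354, chromosome 15, 77915047 to 77929006), the mitochondrial thioredoxin, was at 56.2, 48.7 and 80.2 CPM in mTOR-/- and 44.0, 43.1 and 43.8 CPM in WT. It was higher in 3 of 3 mTOR-/- libraries and most so in mTOR-/- 3, and its log2 fold change of 0.50 (SE 0.18) also missed the threshold (adjusted p = 0.147, edgeR) and was 0.26 without mTOR-/- 3. Neither difference was called, and the difference between these 2 changes was not tested. Txnrd1 (ENSMUSG00000020250, chromosome 10, 82859206 to 82897724), the cytosolic reductase, was at 322, 318 and 338 CPM in mTOR-/- and 377, 380.4 and 369 CPM in WT. These were tight, non-overlapping groups, and the log2 fold change was -0.20 (interval -0.39 to -0.02, adjusted p = 0.194, edgeR). Txnrd2, the mitochondrial reductase, had a log2 fold change of -0.29 (SE 0.17) with overlapping groups.

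**Figure D3:**
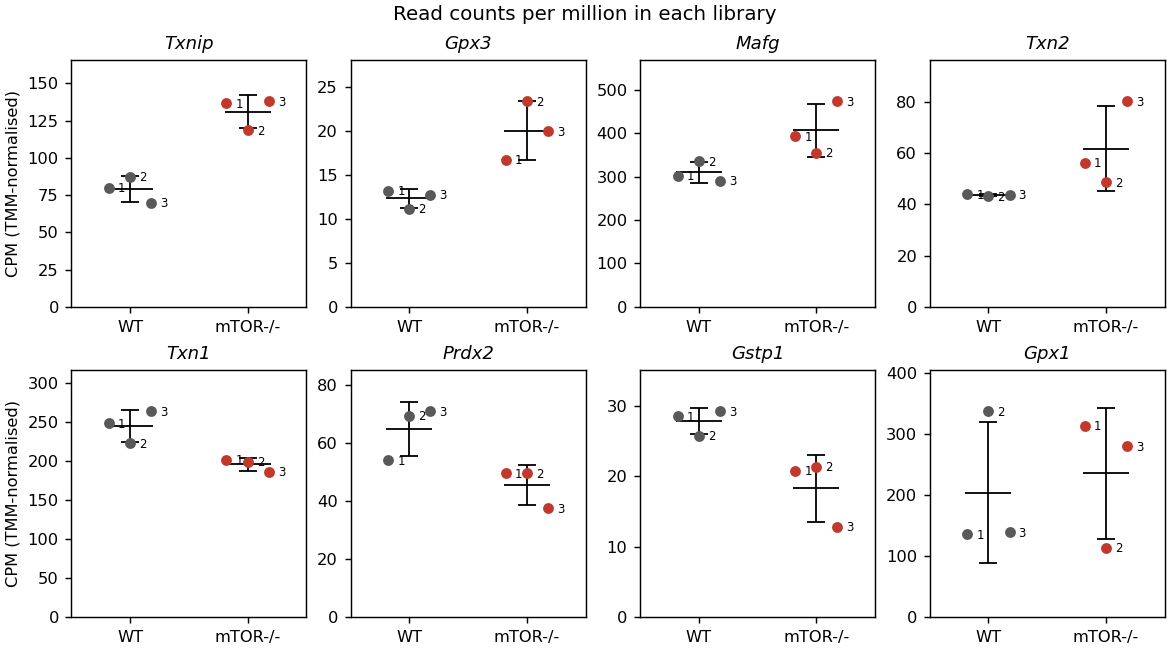
CPM of 8 genes in each WT (grey) and mTOR-/- (red) library, numbered by replicate, with the mean and SD of each group (n = 3) as black bars. Txnip, Gpx3, Mafg and Txn2 sit higher and Txn1, Prdx2 and Gstp1 lower in every mTOR-/- library, with only Txnip called, and both groups of Gpx1 hold low and high libraries.

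Peroxiredoxins, which remove peroxide with electrons from thioredoxin, and sulfiredoxin, which repairs them, had no called gene among 7. Log2 fold changes were below 0 for 6 of them (85.7%, beside 49.4% of all genes tested). These include Prdx3, whose sign changed in a fit with a library left out. Prdx2 (ENSMUSG00000005161, chromosome 8, 84969587 to 84974834) was at 49.6, 49.5 and 37.4 CPM in mTOR-/- and 53.9, 69.2 and 70.8 CPM in WT. The groups were separate but close between mTOR-/- 1 and WT 1. This was a log2 fold change of -0.51 (SE 0.16, adjusted p = 0.107, edgeR). Prdx2 shares 350 of its 3050 exon bases with Rnaseh2a and Junb on the opposite strand. Prdx4 (ENSMUSG00000025289, chromosome X, 155323918 to 155340754), the peroxiredoxin of the endoplasmic reticulum, was at 8.15, 5.71 and 4.13 CPM in mTOR-/- and 7.04, 11.9 and 10.4 CPM in WT. The groups overlapped, since WT 1 lay below mTOR-/- 1. The change of -0.71 on the log2 scale was not called (SE 0.31, adjusted p = 0.232, edgeR). Prdx6, which works with glutathione in place of thioredoxin, did not overlap between groups, with a log2 fold change of -0.34 (SE 0.11, adjusted p = 0.137, edgeR).

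Other members of the family stayed nearer to WT. Prdx1 (ENSMUSG00000028691, chromosome 4, 116685544 to 116700822), a cytosolic peroxiredoxin, was at 425, 403 and 347 CPM in mTOR-/- and 330.4, 538 and 457 CPM in WT. The spread was widest within WT, and the log2 fold change was -0.17 (interval -0.55 to 0.20). Prdx3 and Prdx5, both found in mitochondria, had log2 fold changes of -0.06 and 0.07 (SEs 0.11 and 0.10). Srxn1, the sulfiredoxin gene and a known NRF2 target, was at -0.12 (SE 0.11).

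The pentose phosphate pathway, whose oxidative branch makes NADPH and whose other branch recycles sugar phosphates, showed no called change and no gene with separate groups. G6pdx (ENSMUSG00000031400, chromosome X, 74409483 to 74429194), the entry enzyme, was at 134, 162 and 128 CPM in mTOR-/- and 123, 127 and 162 CPM in WT. High and low libraries occurred in both groups. The log2 fold change was 0.04, with an interval of -0.26 to 0.35 (adjusted p = 0.891, edgeR), inside 1.5-fold. Pgls and Pgd, the following steps of the oxidative branch, were at 0.07 and 0.15 on the log2 scale (SEs 0.14 and 0.10). All 3 genes of the oxidative branch were thus above 0 and all 3 of the other branch below it, and this contrast was not tested. Taldo1 (ENSMUSG00000025503, chromosome 7, 141392199 to 141402968), the transaldolase, was at 380.4, 351 and 282 CPM in mTOR-/- and 399.7, 374 and 384 CPM in WT. Its lowest value was that of mTOR-/- 3, and the log2 fold change was -0.19 (SE 0.12, adjusted p = 0.379, edgeR). Tkt, the transketolase, and Rpia, the ribose phosphate isomerase, had log2 fold changes of -0.22 and -0.36 (SEs 0.12 and 0.15), also with their lowest values in mTOR-/- 3.

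Malic enzymes make NADPH or NADH from malate. Me2, the mitochondrial form, was at 45.4, 51.0 and 39.6 CPM in mTOR-/- and 55.1, 47.0 and 52.3 CPM in WT, with a log2 fold change of -0.18 (SE 0.13). Me1, the cytosolic NADP form, was close to absent in these cells, at 1.53 to 2.55 CPM in mTOR-/- and 2.32 to 3.20 CPM in WT, and its interval, -1.34 to 0.58, reached past 2-fold.

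Further genes of the same pathways, listed by function, numbered 88, of which 85 were in the table and 74 were tested. Of these, 4 were called (5.41%, beside 4.04% of all genes), all lower in mTOR-/-, and none was a DEG. The median log2 fold change was -0.13, beside 0.005 for all genes. It was below 0 for 45 and above 0 for 29 (60.8% below, beside 49.4% of all genes). The groups did not overlap for 20, 18 lower and 2 higher (27%, beside 28.4% of all genes, 13.9% lower and 14.5% higher). By role, calls were made for 3 of 19 tested NRF2 targets, 1 of 20 glutathione genes, 0 of 7 NRF2 regulators, 0 of 11 thioredoxin and peroxide genes and 0 of 17 genes of NADPH supply. At an unadjusted p under 0.05 (edgeR) there were 16 of the 74, 14 lower and 2 higher (21.6%, beside 21.2% of all genes, 9.52% lower and 11.7% higher): 5 NRF2 targets, 3 glutathione genes, 4 regulators, 1 thioredoxin and peroxide gene and 3 genes of NADPH supply.

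Hmox1 (ENSMUSG00000005413, chromosome 8, 75093591 to 75100596), which encodes the inducible heme oxygenase and is a target of both NRF2 and BACH1, was at 1016, 781 and 841 CPM in mTOR-/- and 1514, 1517 and 1599.7 CPM in WT. The groups were far apart. Hmox1 fell by 0.81 on the log2 scale (SE 0.12, adjusted p = 0.00642, edgeR), and it was called with each library left out. Ftl1 (ENSMUSG00000050708, chromosome 7, 45457944 to 45459884), the ferritin light chain, was at 5005, 5371 and 3837 CPM in mTOR-/- and 9123, 6645 and 9499 CPM in WT, a log2 fold change of -0.83 (SE 0.18, adjusted p = 0.0370, edgeR). Its call was lost without mTOR-/- 1, WT 1 or WT 3 (adjusted p = 0.0858, 0.146 and 0.174, edgeR), and reads of ferritin genes can fall on their processed pseudogenes. The heavy chain gene Fth1 had separate groups but was not called (log2 fold change -0.26, adjusted p = 0.353, edgeR).

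Abcc1 (ENSMUSG00000023088, chromosome 16, 14361558 to 14475737), a pump that exports glutathione conjugates, was at 328, 331 and 313 CPM in mTOR-/- and 437, 421 and 453 CPM in WT. The libraries of each group were close together, and the log2 fold change was -0.43 (SE 0.08, adjusted p = 0.0241, edgeR). The call held without mTOR-/- 2 or 3 and was lost without mTOR-/- 1 or any WT library (adjusted p = 0.0697 to 0.143, edgeR). Esd (ENSMUSG00000021996, chromosome 14, 74732297 to 74750765), a hydrolase that frees glutathione from its formaldehyde adduct, was at 245, 210.1 and 231 CPM in mTOR-/- and 362, 441 and 431 CPM in WT. It fell by 0.85 on the log2 scale (SE 0.11, adjusted p = 0.00356, edgeR), and it was called with each library left out.

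Genes that feed the same systems were not called. Slc7a11, the cystine importer for glutathione synthesis, was at 612, 503 and 539.8 CPM in mTOR-/- and 489.9, 535 and 535 CPM in WT (log2 fold change 0.09, interval -0.14 to 0.31). Cat, catalase, was at 259.6, 257 and 228 CPM and 248, 252 and 262 CPM (log2 fold change -0.03, interval -0.23 to 0.17). Both intervals lay inside 1.5-fold. Idh1, a cytosolic source of NADPH, was higher in 3 of 3 mTOR-/- libraries, at 343, 275 and 279 CPM against 222, 241 and 249.99 CPM, but was not called (log2 fold change 0.33, adjusted p = 0.130, edgeR). Nnt, the mitochondrial transhydrogenase, was at 50.2, 42.8 and 47.8 CPM and 37.96, 34.4 and 43.7 CPM, with overlap between mTOR-/- 2 and WT 3 (log2 fold change 0.28, adjusted p = 0.272, edgeR).

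**Figure D4:**
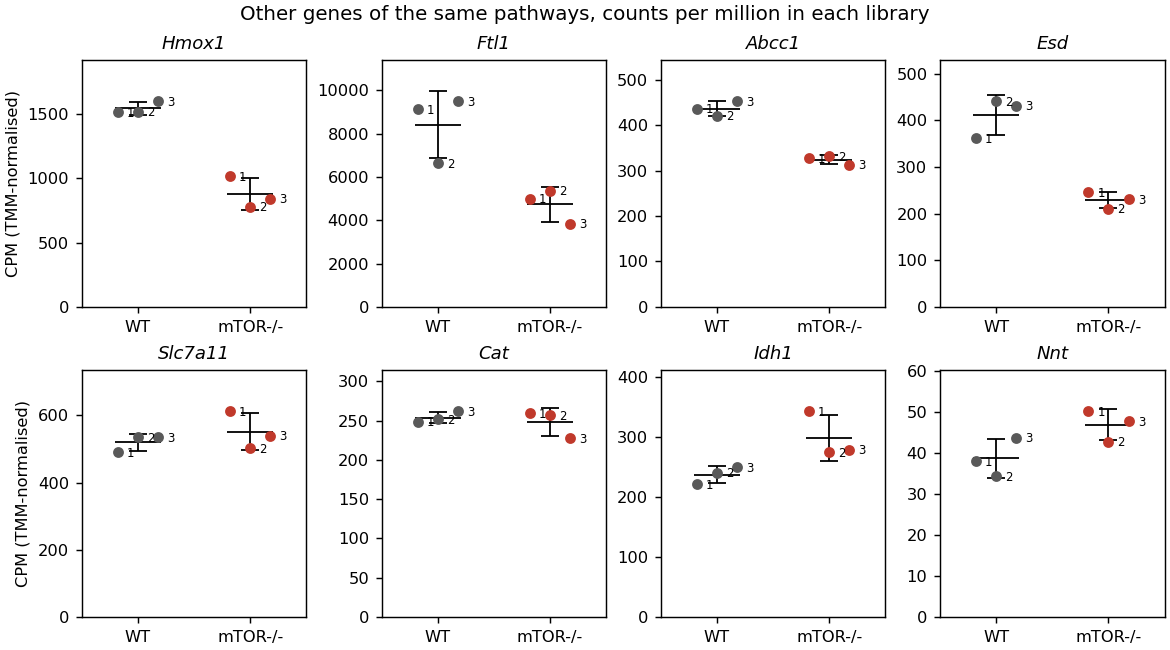
CPM of 8 further pathway genes in each WT (grey) and mTOR-/- (red) library, numbered by replicate, with the mean and SD of each group (n = 3) as black bars. The upper row shows the 4 called genes, each lower in all mTOR-/- libraries, and the lower row shows 4 genes that were not called.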

How the data were processed

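The authors aligned RNAseq reads to mm10 with Bowtie2 and deposited counts of reads per gene made with HTSeq, along with FPKM values for each library, per the methods of the study. The processing notes of the submitters instead name HISAT2 2.0.4 and StringTie 1.3.0, without roles, and the builds GRCm38.p4 and mm9. Strand setting and annotation release are not given in the sources used here, and 13 of the 40 genes share annotated exon bases with another gene. The largest shares were those of Pgls (20.6%), Txnip (19.4%), Prdx5 (19.1%) and Gss (15.4%). Next came Gstm5 (13.9%), G6pdx (13.6%), Prdx2 (11.5%) and Keap1 (10.9%). Of 36 per-sample columns, 24 repeat others and were not used, and neither were the authors' group means, log2 ratios and p and q values.

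Counts were tested with edgeR 4.0.16 (TMM, filterByExpr with a minimum count of 10 and a minimum total of 15, quasi-likelihood test, Benjamini-Hochberg adjustment over all 12537 tested genes, no block) in R 4.3.3. The biological coefficient of variation was 19.0%. Counts give the depth: 3 counts, the floor, are 0.205 to 0.245 CPM, which covers counting error only. Intervals are 95%, from the standard error and the residual degrees of freedom of the fit. FPKM served only to order levels. The method was tested on simulated counts with the means, depths and dispersions of the tested genes. It called 16.7% of 66 genes changed 1.5-fold, 66.2% of 65 changed 2-fold and 81.2% of 69 changed 4-fold. Changes of 1.5-fold were thus mostly missed in those counts. There the method called 117 of 12537 genes in all, beside 507 in the data. The median within-group SD of log2 CPM in the data was 0.165 for the 40 genes and 0.210 for all tested genes. The share of such changes missed among the 40 genes was not tested. An exact permutation test of 3 libraries against 3 cannot go below p = 0.1.

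The genes and lists were chosen with earlier results of these data known. Values in every library are given for called genes, the 10 largest changes, the 5 highest mean FPKM, Nfe2l2, Keap1, Nqo1 and G6pdx, and, among the further genes, the called ones with Slc7a11, Cat, Idh1 and Nnt. Mafg, Gpx1 and Me2 were added after their values were seen. Alternatives were DESeq2 1.42.0, its size factors, upper-quartile normalization, other filters on low counts, a replicate block and each library left out. Promoters are RefSeq windows of GRCm38.p6 and codons are from GENCODE M21, which held all 40 genes, 34 with the same start and end.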

Additional observations from a re-analysis of the deposited data

How the results depend on the processing

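Of the changes of single named genes under the settings that keep all libraries, 275 kept their direction and side of the threshold, 2 fell short of it, 4 newly passed it and 5 changed sign. With 1 library left out these numbers were 257, 9, 1 and 19. The number of the 40 genes called was 5 with DESeq2's Wald test (Txnip, Mafg, Gpx3, Txn1 and Prdx2), 0 with a fold change of at least 2, and 0 to 2 with each library left out (0 without WT 1 or WT 3, 2 without mTOR-/- 2). No setting made any of the 40 a DEG. DESeq2's Wald test was run without the filter on low counts and called 1066 of 17309 genes, beside 507 of 12537 with edgeR. The DEGs over all genes rose from 212 to 356. Without that filter edgeR called 694 of 17309 genes and 1 of the 40. Over all genes, edgeR called 193 of 12780 without WT 1, 173 of 12808 without WT 3 and 513 of 12833 without mTOR-/- 2. With each library left out, the calls over all genes lay between 173 and 513 and the DEGs between 114 and 229. The further pathway genes called numbered 2 to 4 with each library left out. Mtor stayed uncalled at log2 fold changes of 0.09 to 0.19 with each library left out. Replicate numbers did not pair the libraries: same-numbered libraries deviated with correlations of -0.076, -0.025 and -0.061. With the replicate block, 279 of all genes, 1 of the 40 genes and 2 of the further genes (Hmox1 and Esd) were called, while Ftl1 and Abcc1 had adjusted p of 0.125 and 0.116 (edgeR).

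Genes near 0 changed sign. Nfe2l2, at 0.0020, was at -0.0016 with DESeq2 size factors, -0.0050 with DESeq2's Wald test, -0.012 without a filter on low counts, -0.0055 with at least 10 counts in every library and -0.0041 with the replicate block. With each library left out, log2 fold changes ranged from -0.096 to 0.060 for Nfe2l2, -0.13 to 0.031 for Keap1, -0.037 to 0.13 for Bach1, -0.099 to 0.15 for Gclm, -0.055 to 0.78 for Gpx1, -0.24 to 0.13 for Mgst1, -0.12 to 0.0035 for Prdx3, -0.078 to 0.17 for G6pdx and -0.071 to 0.018 for Cat. The cause was not tested. Gsta4 and Mgst3 were not tested with at least 10 counts in every library, and Gsta4 did not pass the filter on low counts without WT 1 or WT 2.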

Other observations

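Partners of Txnip were looked up after its value was seen. Arrdc4, the arrestin gene that shares the sugar response with Txnip, was at 26.2, 26.2 and 22.8 CPM in the mTOR-/- libraries and 25.0, 28.0 and 31.4 CPM in the WT libraries, with overlapping groups (log2 fold change -0.17, SE 0.15, adjusted p = 0.548, edgeR). Mlxip and Mlx, which encode the factors that bind the tandem motif, had log2 fold changes of 0.08 and -0.10 (SEs 0.14 and 0.16). Mlxipl did not pass the filter on low counts.

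Nfe2l1, the relative of Nfe2l2 that drives proteasome genes, was at 65.8, 72.7 and 82.8 CPM in the mTOR-/- libraries and 352, 77.7 and 73.8 CPM in WT. The log2 fold change of -1.19 (adjusted p = 0.234, edgeR) rests on the single library WT 1. Nfe2l1 was not among the genes fixed for values by library.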
